A study of Oryza sativa Japonica Group with 18 samples.

Results

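Heat shock transcription factors (HSFs) were followed across 6 groups of rice leaf libraries. The 10 genes were taken by locus ID out of 38610 genes in the deposited table, and 9 of them passed the filter for testing. Those of class A were HSFA2A (Os03g0745000), HSFA2B (Os07g0178600), HSFA2C (Os10g0419300), HSFA2D (Os03g0161900), HSFA3 (Os02g0527300) and HSFA4D (Os05g0530400). Those of class B were HSFB2B (Os08g0546800) and HSFB2C (Os09g0526600), and those of class C were HSFC1B (Os01g0733200) and HSFC2A (Os02g0232000). The table holds no gene names, and these were checked against a reference gene table by chromosome and gene order. RNA came from leaves of Oryza sativa Japonica Group at the 3-leaf stage. The lines were OsERF096-OX (OX), which overexpresses the ethylene response factor gene OsERF096, OsERF096-RNAi (RNAi), which carries an RNA interference construct against it, and wild type (WT). Each line was sampled after 12 h at 4 °C (cold) and under normal growth (control), with 3 libraries a group. The sources used here do not name the promoter of the OX construct, the number of independent lines behind OX and RNAi, or the clock time of freezing. Time of day and cold therefore cannot be told apart. Nor do they state whether libraries of 1 group are separate plants, and p-values cover only the spread among libraries, part of which may be technical.

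HSFs bind short inverted repeats, the heat shock elements, in promoters of chaperone genes. Their DNA-binding domain is followed by a coiled-coil region through which they form trimers. Class A factors carry activator motifs and drive transcription. Class B factors lack these motifs, and several act as repressors or as helpers of class A factors. Class C factors also lack them and are less well known. In plants the family is large, and some members respond to cold, salt, drought or abscisic acid as well as to heat.

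The values are FPKM, fragments per kilobase of transcript scaled to sequencing depth, which hold no read totals, so the absolute depth is unknown. By the steps between low values, relative depth ran from 0.896 to 1.44 times that of the median library. The leaf markers CAB1R, CAB2R and RCA were present in every library, the meristem marker OSH1 was listed at 0 in all, the seed marker GLUA1 reached at most 0.535 FPKM and the root marker LSI1 at most 14.6 FPKM. WT control replicate 2 stood apart from its group, with a mean correlation of 0.92 to its other libraries. Its 4 secondary wall markers, CESA4, CESA7, CESA9 and BC1, summed to 12.5 FPKM, against 211 and 279 FPKM in WT control replicates 1 and 3. Calls that change without it are given both ways. OsERF096 was not analysed here, and the OX and RNAi labels were thus not checked by their target.

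Among the class A genes, HSFA3 changed most. It encodes an activator that in Arabidopsis acts downstream of the drought and heat regulator DREB2A. HSFA3 stood at 252, 323 and 357 FPKM in OX cold leaves, against 16.895, 9.99 and 13.2 FPKM in OX control leaves. It stood at 352, 363 and 341 FPKM in RNAi cold leaves, against 13.007, 8.17 and 9.18 FPKM in RNAi control leaves. In WT leaves it stood at 260.4, 269 and 231 FPKM after cold, against 10.8, 23.0 and 14.8 FPKM in control leaves. All 9 cold libraries lay far above all 9 control libraries. The summed leaf markers were lower in the cold in OX and RNAi, with 8697 to 9770 FPKM in OX cold and 11530 to 23531 FPKM in OX control libraries, and 7095 to 10959 FPKM in RNAi cold and 13498 to 17479 FPKM in RNAi control libraries. In WT their sums overlapped, at 12020 to 14056 FPKM in cold and 11669 to 23207 FPKM in control libraries. CAB1R, a chlorophyll-binding protein gene, averaged 709 FPKM in OX cold and 3474 in OX control leaves, 541 in RNAi cold and 3108 in RNAi control leaves, and 1164 in WT cold and 3514 in WT control leaves. The part of these markers in the cold changes of the HSF genes was not tested. In whole leaves, fewer cells of a type and less RNA per cell cannot be told apart. The means of FPKM were 23.3-fold higher in OX cold than in OX control, 34.8-fold higher in RNAi cold than in RNAi control, and 15.7-fold higher in WT cold than in WT control.

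On the log2(FPKM + 1) scale, HSFA3 rose by 4.45 ± 0.23 in OX, 5.01 ± 0.23 in RNAi and 3.95 ± 0.23 in WT (SE, n = 3 libraries a group). The adjusted p from limma was 1.1e-09 in OX, 3.11e-10 in RNAi and 5.22e-09 in WT. Only 0.643% of the 23175 genes tested had a larger increase in OX, 0.496% in RNAi and 0.613% in WT. Without WT control replicate 2, in which HSFA3 was highest among the controls, the increase in WT was 4.22. In order of mean level, RNAi cold (352 ± 10.9995 FPKM, SD) was followed by OX cold (311 ± 53.6) and WT cold (253 ± 19.6). WT control (16.2 ± 6.20), OX control (13.3 ± 3.46) and RNAi control (10.1 ± 2.55) came last. Within either condition no neighbours in this order differed past the threshold.

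**Figure D1:**
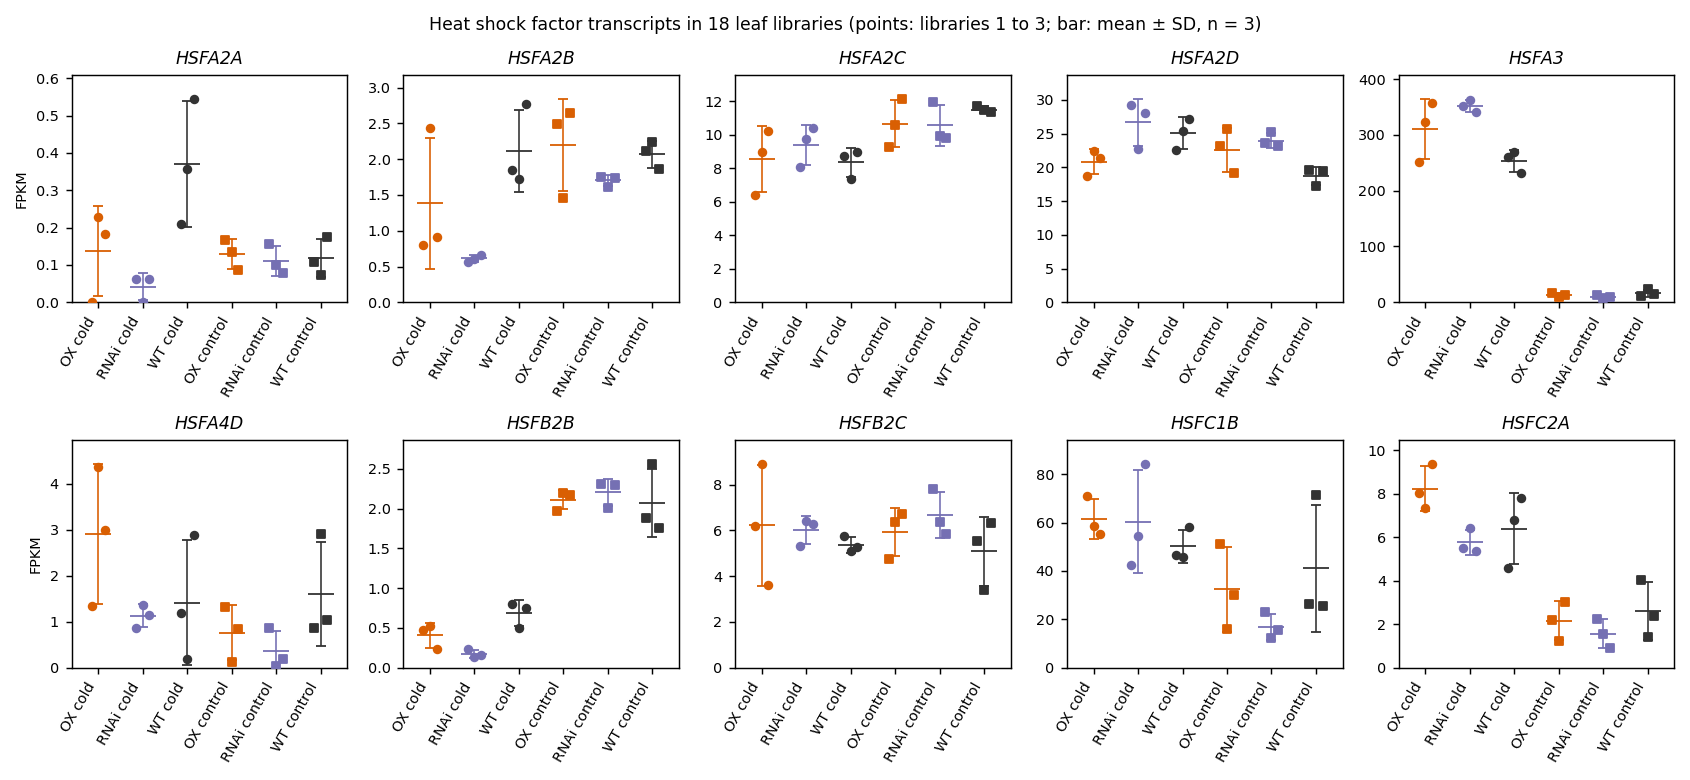
FPKM of the 10 heat shock factor genes (1 panel each, vertical axis from 0) in the 6 groups. Circles are cold and squares control libraries, and the bar with whiskers is the mean ± SD of 3 libraries. HSFA3 lies at 231 to 363 FPKM in all cold libraries and at 8.17 to 23.0 FPKM in all controls, whereas HSFB2B is lower in every cold library than in any control.

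FPKM is scaled to gene length, so levels of different genes can be set side by side, as far as the unknown annotation and read splitting allow. The HSFA2C and HSFA2D rows, part of each sum, may also hold reads of other genes, as given below. HSFA3 made up 69.1% to 77.4% of the summed FPKM of the 10 genes in OX cold libraries, against 13.5% to 14.9% in OX control libraries. The share was 71.5% to 79.2% in RNAi cold and 12.1% to 15.03% in RNAi control libraries. The WT share was 66.9% to 74.2% in cold and 13.02% to 17.5% in control libraries. Among all 23 named HSF genes, HSFA3 ranked 1 by FPKM in every cold library and between 3 and 8 in the controls. The summed FPKM of the other 9 genes was 110.2 ± 5.18 in OX cold and 78.9 ± 16.4 in OX control leaves (SD, n = 3). It was 110.2 ± 23.1 in RNAi cold and 64.1 ± 8.15 in RNAi control leaves. WT summed to 99.97 ± 12.4 in cold and 84.9 ± 24.11 in control leaves, values that overlap.

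**Figure D2:**
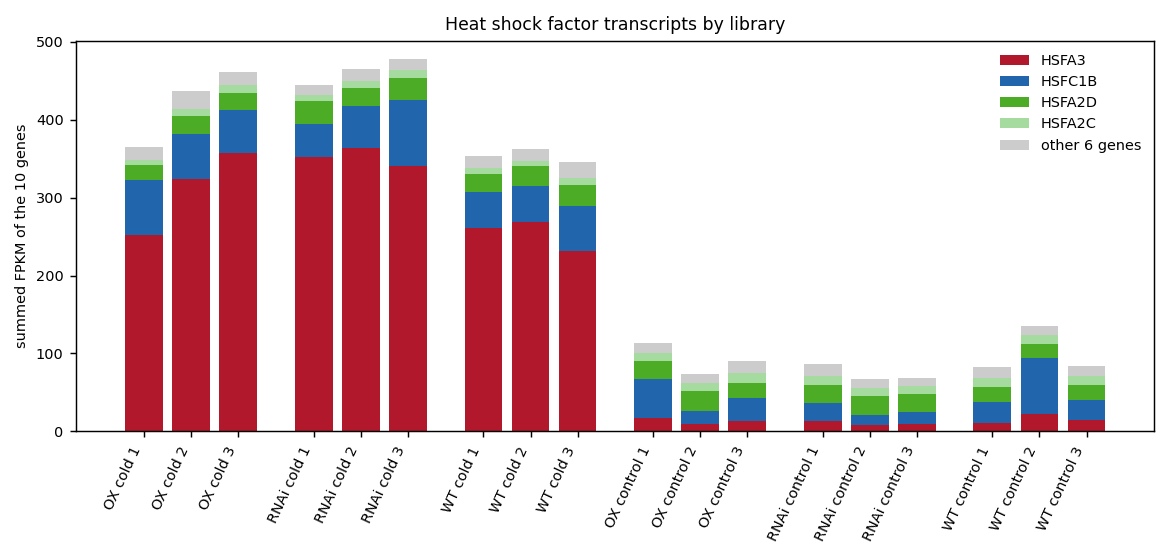
Summed FPKM of the 10 genes in each of the 18 libraries, stacked by gene. HSFA3 (red) fills 66.9% to 79.2% of the bar in the 9 cold libraries and 12.1% to 17.5% in the 9 control libraries, and WT control replicate 2 has the tallest control bar, 136 FPKM.

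The A2 genes did not rise like HSFA3. HSFA2A was near 0 in all libraries, at most 0.544 FPKM, and did not pass the filter of at least 1 FPKM in at least 3 libraries. In Arabidopsis, HSFA2 is strongly induced by heat and sustains the heat response. HSFA2A was listed at 0, 0.227 and 0.183 FPKM in OX cold, 0.0614, 0 and 0.0632 FPKM in RNAi cold and 0.208, 0.357 and 0.544 FPKM in WT cold leaves. The 9 control libraries ranged from 0.073 to 0.174 FPKM, below every WT cold library. No test was made for it.

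HSFA2B fell in cold RNAi leaves. It was at 0.569, 0.608 and 0.663 FPKM in RNAi cold, against 1.76, 1.61 and 1.74 FPKM in RNAi control leaves, a change of -0.75 ± 0.22 on the log2(FPKM + 1) scale (SE, limma adjusted p = 0.0113). The groups did not overlap. The secondary wall markers summed to 30.5 to 83.0 FPKM in RNAi cold and 140 to 176 FPKM in RNAi control libraries, and the leaf markers were lower in RNAi cold too. Their part in this change was not tested. In OX the cold libraries held 0.808, 2.44 and 0.908 FPKM and the controls 2.50, 1.46 and 2.64 FPKM. There replicate 2 stood apart in both groups, and the change of -0.47 ± 0.22 missed the threshold (adjusted p = 0.106). It passed without OX cold replicate 2 (-0.76, adjusted p = 0.00479) or without OX control replicate 2 (-0.65, adjusted p = 0.0381). In WT, HSFA2B was at 1.84, 1.72 and 2.77 FPKM in cold and 2.11, 2.24 and 1.86 FPKM in control leaves, which overlap.

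HSFA2C and HSFA2D were found at moderate levels in every library. HSFA2C, which in rice binds the promoter of a chaperone gene of the HSP100 class, ranged from 6.38 to 10.4 FPKM in the cold libraries and from 9.30 to 12.1 FPKM in the controls. It fell in WT, with 8.73, 7.37 and 8.95 FPKM in cold against 11.7, 11.5 and 11.4 FPKM in control leaves (-0.42 ± 0.16, SE, limma adjusted p = 0.0361). In OX (-0.31 ± 0.16, adjusted p = 0.138) and RNAi (-0.15 ± 0.16, adjusted p = 0.446) it was not called. The call in WT was lost after quantile normalization (-0.20, adjusted p = 0.239) and median-ratio scaling (-0.18, adjusted p = 0.31). It was also lost without WT cold replicate 1 or 2 or any single WT control library (adjusted p from 0.0599 to 0.132).

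HSFA2D, which in rice takes part in the control of tiller angle, rose in cold WT leaves, with 22.6, 25.4 and 27.2 FPKM against 19.6, 17.2 and 19.4 FPKM in control leaves. The change was 0.40 ± 0.13 (SE, limma adjusted p = 0.0193), and the groups did not overlap. The call was lost without WT control replicate 2 (0.34, adjusted p = 0.0681), WT cold replicate 2 (0.39, 0.0547) or WT cold replicate 3 (0.34, 0.0723). HSFA2D was at 18.8, 22.4 and 21.3 FPKM in OX cold and 23.1, 25.6 and 19.1 FPKM in OX control leaves. It was at 29.2, 22.7 and 28.0 FPKM in RNAi cold and 23.5, 25.2 and 23.1 FPKM in RNAi control leaves. Neither change was called. The reference table lists HSFA2C and HSFA2D together with names of acireductone dioxygenase genes, so reads of those genes may be counted in the 2 rows.

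HSFA4D is the rice gene SPL7, whose loss gives leaves with spots of dying cells. Its transcript was low and scattered, at 1.33, 4.37 and 2.9998 FPKM in OX cold, against 1.31, 0.130 and 0.836 FPKM in OX control leaves. It was at 0.870, 1.36 and 1.15 FPKM in RNAi cold, against 0.861, 0.0269 and 0.189 FPKM in RNAi control leaves. In WT it was at 1.19, 0.178 and 2.88 FPKM in cold and 0.854, 2.90 and 1.03 FPKM in control leaves, which overlap fully. The cold and control libraries of OX and of RNAi did not overlap, by a narrow margin. HSFA4D was called higher in OX (1.13 ± 0.42, SE, limma adjusted p = 0.0488) and not in RNAi (0.69 ± 0.42, adjusted p = 0.203) or WT (-0.18 ± 0.42, adjusted p = 0.744). The direction in WT was not stable, at 0.15 without WT control replicate 2 (adjusted p = 0.81) and 0.25 without WT cold replicate 2 (adjusted p = 0.663). In RNAi it passed when the 6 RNAi libraries were fitted alone (adjusted p = 0.0448). The call in OX ended under 8 of the 13 alternatives that kept the gene. Among them were a pseudocount of 0.1 (adjusted p = 0.093) and leaving out OX control replicate 2 (0.17) or 3 (0.0841) or OX cold replicate 2 (0.178) or 3 (0.118).

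The class B genes differed from each other. HSFB2B, which in rice lowers drought and salt tolerance when overexpressed, fell in the cold in all 3 lines. It was at 0.468, 0.521 and 0.230 FPKM in OX cold, against 1.97, 2.19 and 2.18 FPKM in OX control leaves. It was at 0.232, 0.131 and 0.156 FPKM in RNAi cold, against 2.31, 2.01 and 2.29 FPKM in RNAi control leaves. In WT it was at 0.806, 0.497 and 0.755 FPKM in cold, against 1.89, 2.56 and 1.76 FPKM in control leaves. Every cold library lay below every control library.

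On the log2(FPKM + 1) scale, which understates the change of such low genes, HSFB2B fell by 1.15 ± 0.13 in OX, 1.45 ± 0.13 in RNAi and 0.86 ± 0.13 in WT. The limma adjusted p was 6.73e-06 in OX, 4.66e-07 in RNAi and 0.000112 in WT. All 3 calls held under each of the 13 alternatives that kept the gene, and a filter of at least 5 FPKM removed it. Its relative HSFB2C averaged 6.23 ± 2.65 FPKM in OX cold and 5.94 ± 1.06 FPKM in OX control leaves. It averaged 6.01 ± 0.615 FPKM in RNAi cold and 6.68 ± 1.01 FPKM in RNAi control leaves. In WT it averaged 5.37 ± 0.334 FPKM in cold and 5.09 ± 1.52 FPKM in control leaves (SD, n = 3 each). HSFB2C was not called in any of the 12 comparisons. Without WT control replicate 2 its change in WT was -0.12 (adjusted p = 0.712), against 0.10 with it. The 95% intervals of its cold response were -0.51 to 0.51 in OX, -0.64 to 0.38 in RNAi and -0.41 to 0.60 in WT on the log2(FPKM + 1) scale.

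Of the class C genes, HSFC2A rose in the cold in all 3 lines and HSFC1B in RNAi. HSFC2A was at 8.03, 7.33 and 9.36 FPKM in OX cold, against 2.21, 1.22 and 3.01 FPKM in OX control leaves. It was at 5.51, 6.44 and 5.38 FPKM in RNAi cold, against 2.24, 1.54 and 0.912 FPKM in RNAi control leaves. In WT it was at 4.60, 6.79 and 7.80 FPKM in cold, against 4.03, 1.42 and 2.38 FPKM in control leaves. Within each line the cold libraries lay above the controls, narrowly so in WT. HSFC2A rose by 1.59 ± 0.27 in OX, 1.43 ± 0.27 in RNAi and 1.07 ± 0.27 in WT (SE, log2(FPKM + 1) scale). The limma adjusted p was 0.000311 in OX, 0.000611 in RNAi and 0.00507 in WT.

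HSFC1B, which in rice takes part in the response to salt, was the highest of the 10 genes in all WT control libraries. It was at 70.9, 58.5 and 55.4 FPKM in OX cold, against 51.0, 16.1 and 30.02 FPKM in OX control leaves. It was at 42.6, 54.4 and 84.2 FPKM in RNAi cold, against 22.9, 12.4 and 15.6 FPKM in RNAi control leaves. WT held 46.8, 45.7 and 58.1 FPKM in cold and 26.4, 71.5 and 25.4 FPKM in control leaves, where replicate 2 exceeded every cold library of WT. HSFC1B rose in RNAi (1.76 ± 0.40, SE, limma adjusted p = 0.00247). It was not called in OX (1.04 ± 0.40, adjusted p = 0.0555) or WT (0.44 ± 0.40, adjusted p = 0.388). In OX it passed without OX control replicate 1 (1.44, adjusted p = 0.014) and after median-ratio scaling (1.24, adjusted p = 0.0279). In WT, without control replicate 2, the change was 0.92 (adjusted p = 0.0562).

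**Figure D3:**
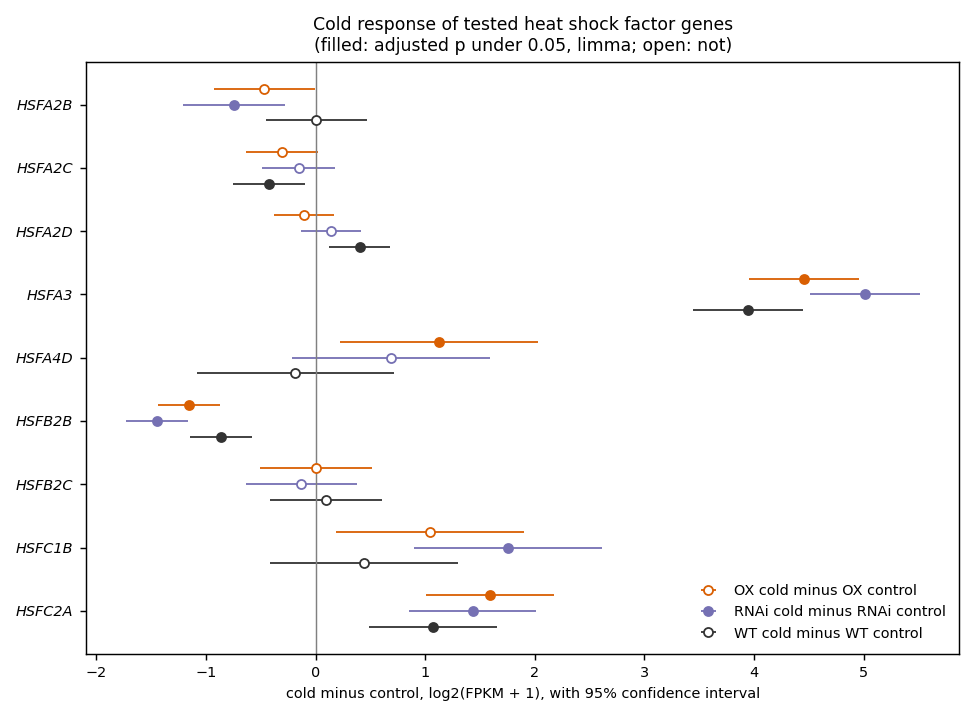
Cold response of the 9 tested genes in OX, RNAi and WT leaves, as the difference of group means on the log2(FPKM + 1) scale (horizontal axis) with its 95% confidence interval from limma. Filled points passed an adjusted p of 0.05 and open points did not. HSFA3 stands at 3.95 to 5.01, HSFC2A at 1.07 to 1.59 and HSFB2B at -1.45 to -0.86, and the other genes lie closer to 0 or differ in call between lines.

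Counted over the 9 genes tested, cold changed 4 in OX, where 36.0% of all genes tested were called. Of the 4, 3 were higher (13.6% of all genes) and 1 was lower (22.4%). In RNAi it changed 5, against 45.0% of all genes, with 3 higher (16.9%) and 2 lower (28.1%). In WT it changed 5, against 45.7%, with 3 higher (14.0%) and 2 lower (31.7%). These counts, 44.4% in OX and 55.6% in RNAi and in WT, lie near the share among all genes. HSFA3, HSFB2B and HSFC2A were called in every line, with the same direction. In WT the count was 3 without control replicate 2 or without cold replicate 2. The median of the 9 genes was 0.0028 in OX, 0.14 in RNAi and 0.10 in WT, beside -0.18, -0.16 and -0.22 for all genes tested in those lines. Median-ratio scaling moved those 3 medians of all genes to about 0. It also moved the share of higher genes among all calls to 55.9% in OX, 53.5% in RNAi and 51.9% in WT, against 37.8%, 37.6% and 30.7% without it. After quantile normalization this share was 45.2% in WT. No call of the 9 genes changed direction under either scaling.

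The lines were then compared with each other at the same temperature. Before cold, none of the 9 genes was called by limma in OX or RNAi leaves against WT, where 4.00% and 2.61% of all genes tested were called. At an unadjusted p under 0.05 the counts were 0 in OX and 3 in RNAi. After cold, none was called in OX against WT (12.9% of all genes, 0 at an unadjusted p under 0.05). HSFA2B was called lower there without OX cold replicate 2 (-0.73, adjusted p = 0.0218) and after quantile normalization (-0.62, adjusted p = 0.0481). In RNAi against WT after cold, 2 of 9 were lower, where 27.6% of all genes were called and 11.9% were lower. The comparisons of OX and of RNAi with WT share the WT libraries. Between OX and RNAi none was called in control leaves (1.73% of all genes, 0 at an unadjusted p under 0.05). None was called between them in the cold (5.94%, 2 at an unadjusted p under 0.05).

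The genes that were lower in cold RNAi than in cold WT leaves were HSFA2B and HSFB2B. HSFA2B averaged 0.613 ± 0.0469 FPKM in RNAi cold and 2.11 ± 0.572 FPKM in WT cold leaves (SD, n = 3), a log2(FPKM + 1) difference of -0.93 ± 0.22 (SE, limma adjusted p = 0.00565). HSFB2B averaged 0.173 ± 0.0529 FPKM in RNAi cold and 0.686 ± 0.166 FPKM in WT cold leaves, a difference of -0.52 ± 0.13 (adjusted p = 0.0101). In neither gene did the groups overlap. The leaf markers summed to 7095 to 10959 FPKM in RNAi cold and 12020 to 14056 FPKM in WT cold libraries, without overlap. The secondary wall markers summed to 30.5 to 83.0 FPKM in RNAi cold and 73.2 to 133 FPKM in WT cold libraries, which overlap. The part of either marker set in these differences was not tested. HSFA3 was at 341 to 363 FPKM in RNAi cold and 231 to 269 FPKM in WT cold libraries, without overlap. Its difference of 0.48 ± 0.23 missed the threshold in the fit of all libraries (adjusted p = 0.145) and passed it when these 6 libraries were fitted alone (adjusted p = 0.0167).

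The difference between cold responses was tested as an interaction. The response of HSFA3 was larger in RNAi than in WT by 1.07 ± 0.33 on the log2(FPKM + 1) scale (SE, limma adjusted p = 0.0249). That of HSFB2B was more negative in RNAi than in WT by 0.59, at -0.59 ± 0.19 (adjusted p = 0.0285). These were 2 of 9 genes, where 30.5% of all genes tested were called, 18.1% higher and 12.4% lower. Without WT control replicate 2 the difference for HSFA3 was 0.80 (adjusted p = 0.0551). It also missed the threshold without RNAi control replicate 2 (adjusted p = 0.0686) or 3 (0.0553) or WT cold replicate 3 (0.0501). For HSFB2B the threshold was missed without RNAi control replicate 1 (0.0524) or 3 (0.0604), RNAi cold replicate 2 (0.0568), WT control replicate 1 (0.0569) or 3 (0.0654), or WT cold replicate 1 (0.0695) or 3 (0.0545). No gene of the 9 was called for OX against WT (10.4% of all genes, 2 at an unadjusted p under 0.05) or for OX against RNAi (0.0475%, 0 at an unadjusted p under 0.05). HSFA2B, with a difference of -0.75 ± 0.31 between the RNAi and WT responses (adjusted p = 0.0753), passed the threshold after quantile normalization (-1.02, adjusted p = 0.0121) and median-ratio scaling (-0.83, adjusted p = 0.0359). HSFA2D passed for OX against WT without OX control replicate 3 (-0.62, adjusted p = 0.0444). For HSFA3 the 95% interval was -0.20 to 1.22 for the OX response minus the WT response and -1.26 to 0.15 for the OX response minus the RNAi response.

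By Pearson's r, HSFA3, HSFA4D and HSFC1B varied together most closely in the control libraries among the 9 genes tested. WT control replicate 2 and OX control replicate 1 held the highest and the second highest levels of HSFA3, HSFA4D and HSFC1B among the 9 controls, and RNAi control replicate 2 the lowest of all 3. On principal component 2, an axis of variation over all genes tested (14.8% of the variance), these 3 libraries stood at 88.4, 25.4 and -42.9. Those were also the highest, second highest and lowest values among the 9 controls. Over these 9 libraries on the log2(FPKM + 1) scale, HSFA3 correlated with HSFA4D at Pearson's r = 0.964 (exact permutation p = 2.76e-05, adjusted over 72 relations 0.00199) and Spearman's rho = 0.933 (p = 0.00075, adjusted 0.0472). HSFA3 correlated with HSFC1B at r = 0.952 (exact permutation p = 0.000118, adjusted 0.00283) and rho = 0.917 (p = 0.00131, adjusted 0.0472). HSFA4D and HSFC1B gave r = 0.958 (exact permutation p = 9.92e-05, adjusted 0.00283) and rho = 0.833 (p = 0.00827, adjusted 0.119). The permutation shuffled the 9 libraries freely across the lines, as if they were exchangeable. How often pairs among all genes tested reach such an r was not counted. Without the 2 libraries farthest from the median of the first gene, r was 0.893, 0.870 and 0.885 for the 3 pairs in that order. Taken as deviations from the group means, r was 0.965, 0.929 and 0.974 for the same pairs, and these values were not tested.

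In the 9 cold libraries the same pairs gave r = 0.095 for HSFA3 with HSFA4D, 0.005 for HSFA3 with HSFC1B and 0.28 for HSFA4D with HSFC1B. In the 9 controls HSFA2B also rose with the 3 genes, less closely by r. Its r was 0.625 with HSFA3, 0.672 with HSFA4D and 0.765 with HSFC1B (exact permutation, adjusted p = 0.324, 0.299 and 0.163). With HSFC1B its rho was 0.883 (adjusted p = 0.0739). HSFA2D and HSFB2C ran the other way. With HSFA3, HSFA4D and HSFC1B, HSFA2D gave r = -0.69, -0.795 and -0.7. HSFB2C gave r = -0.654, -0.671 and -0.75 with them. None passed the threshold (exact permutation, adjusted p from 0.124 to 0.315). HSFB2C was lowest, at 3.40 FPKM, in WT control replicate 2, and HSFA2D was lowest there too, at 17.2 FPKM. The secondary wall markers were at their lowest in that library, 12.5 FPKM, but stood at 180 FPKM in OX control replicate 1, against 195 and 236 FPKM in the other OX controls. The root marker LSI1 was also highest in the 2 libraries that led the 3 genes, at 14.6 FPKM in WT control replicate 2 and 13.7 FPKM in OX control replicate 1, against 1.40 to 5.33 FPKM in the other controls. The leaf markers were highest there too, with sums of 23207 and 23531 FPKM. The part of these markers in the shared variation was not tested.

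**Figure D4:**
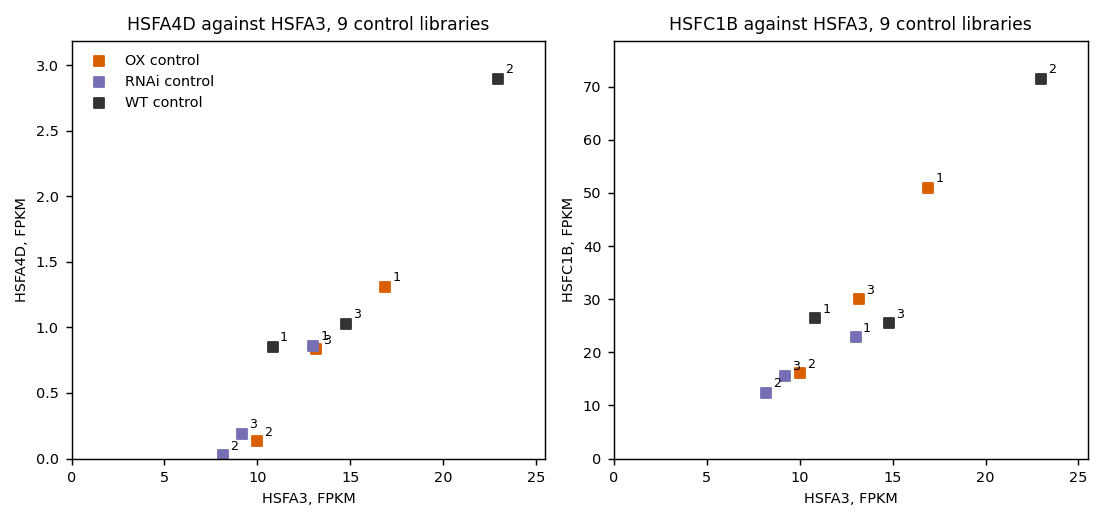
FPKM of HSFA4D (left) and HSFC1B (right) against FPKM of HSFA3 in the 9 control libraries, with colours for the line and numbers for the replicate. WT control replicate 2, at 23.0 FPKM of HSFA3, 2.90 of HSFA4D and 71.5 of HSFC1B, lies at the upper end of both plots, and RNAi control replicate 2 at the lower end.

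The genes whose pattern was most like that of HSFA3 over the 18 libraries were Os08g0497900 (r = 0.997) and Os01g0863300 (r = 0.997), on the log2(FPKM + 1) scale. Much of such an r reflects the difference between cold and control. Within the 9 cold libraries it was 0.900 and 0.848, and within the 9 controls 0.902 and 0.893. The genes, here and for HSFB2B, were picked over the same libraries, so values within a condition are no separate support. Os01g0863300 averaged 270.3 FPKM in OX cold, 352 in RNAi cold and 159 in WT cold leaves, against 1.95, 1.14 and 2.09 FPKM in OX, RNAi and WT control leaves. The genes most like HSFB2B were Os01g0704200 (r = 0.973) and Os05g0592100 (r = 0.971). Within the 9 cold libraries r was 0.808 and 0.747, and within the 9 controls 0.585 and 0.367. The sources used here pair none of these IDs with a name.

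Of the 13 further named HSF genes, 9 passed the filter. In the cold, 4 of them rose and 2 fell in OX, 4 rose and 2 fell in RNAi, and 3 rose and 2 fell in WT (adjusted p under 0.05 over all genes tested). That is 66.7% called in OX, 66.7% in RNAi and 55.6% in WT, beside 36.0%, 45.0% and 45.7% of all genes tested. The median change of the 9 was 0.02 in OX, 0.50 in RNAi and 0.29 in WT, beside -0.18, -0.16 and -0.22 over all genes. HSFA9, known in Arabidopsis from seed maturation, rose most. It averaged 47.6 ± 3.95 FPKM in OX cold and 7.57 ± 0.853 FPKM in OX control leaves, 55.3 ± 4.05 in RNAi cold and 7.90 ± 0.0423 in RNAi control leaves, and 38.1 ± 2.83 in WT cold and 9.50 ± 0.873 in WT control leaves (SD, n = 3). Its increase was 2.50 ± 0.11 in OX, 2.66 ± 0.11 in RNAi and 1.90 ± 0.11 in WT (SE). HSFA4B rose by 1.40 ± 0.14, 1.15 ± 0.14 and 1.52 ± 0.14, and the class B gene HSFB2A by 1.13 ± 0.23, 1.53 ± 0.23 and 1.00 ± 0.23, in OX, RNAi and WT.

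HSFB1, another class B gene, rose in OX (1.35 ± 0.30) and RNAi (1.04 ± 0.30) and stood at 12.6 ± 2.38 FPKM in WT cold and 10.95 ± 5.13 FPKM in WT control leaves. Without RNAi cold replicate 3 its change in RNAi was 0.83 (adjusted p = 0.0556). Without WT control replicate 2 its response was larger in OX than in WT by 1.48 (adjusted p = 0.0129, against 1.06 and 0.116 with it). The RNAi response was then larger than the WT response by 1.18 (adjusted p = 0.0142, against 0.75 and 0.19 with it). HSFA2E, an A2 gene outside the 10, fell in WT by 1.19 ± 0.12, a call that held under every alternative. In OX (-0.44 ± 0.12) and RNAi (-0.37 ± 0.12) it was also called lower. Those calls were lost after median-ratio scaling (-0.25, adjusted p = 0.156 in OX and -0.17, adjusted p = 0.301 in RNAi). They were also lost without OX control replicate 1 (0.0575) or OX cold replicate 3 (0.0596), and without RNAi control replicate 1 (0.0877) or 3 (0.0504) or RNAi cold replicate 1 (0.0848) or 2 (0.0677). HSFA5, a further class A gene, fell in OX (-0.53 ± 0.12) and RNAi (-0.88 ± 0.12). In OX it missed the threshold when the compared groups were fitted alone (adjusted p = 0.0577). HSFA5 averaged 11.2 ± 0.499 FPKM in WT cold and 13.1 ± 0.407 FPKM in WT control leaves and was not called. HSFA1, whose relatives start the heat response in Arabidopsis and tomato, was picked after its values were seen. It averaged 34.6 FPKM in OX cold and 38.5 in OX control leaves. It averaged 31.4 FPKM in RNAi cold and 34.9 in RNAi control leaves, and 33.0 FPKM in WT cold and 42.1 in WT control leaves. It was called lower in WT (-0.33 ± 0.13, limma adjusted p = 0.0481), a call lost under 9 alternatives, median-ratio scaling among them (-0.07, adjusted p = 0.678).

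Chaperone genes known as HSF targets were counted beside them, 18 in all, namely HSP101, 14 small heat shock proteins and the 3 HSP90 genes HSP81-1, HSP81-2 and HSP81-3. Of these, 13 passed the filter. In the cold, 4 rose and 2 fell in OX, 4 rose and 3 fell in RNAi, and 6 rose and 2 fell in WT, with medians of 0.07, -0.28 and 0.42, beside -0.18, -0.16 and -0.22 over all genes. The called share was 46.2% in OX, 53.8% in RNAi and 61.5% in WT, beside 36.0%, 45.0% and 45.7% of all genes tested. The small heat shock protein gene HSP26.2 rose in all lines, to 5.76 ± 0.369 FPKM in OX cold against 0.752 ± 0.451 in OX control leaves. It averaged 6.12 ± 0.871 FPKM in RNAi cold and 0.599 ± 0.287 in RNAi control leaves, and 6.27 ± 1.51 FPKM in WT cold and 0.920 ± 0.372 in WT control leaves. HSP101, which pulls apart aggregated proteins, averaged 1.42 ± 0.538 FPKM in OX cold and 0.261 ± 0.108 in OX control leaves, and 1.21 ± 0.341 in RNAi cold and 0.273 ± 0.265 in RNAi control leaves. It rose in both lines, by 0.92 ± 0.20 and 0.80 ± 0.20 (SE). In WT it averaged 0.739 ± 0.186 FPKM in cold and 0.333 ± 0.226 in control leaves and was not called. HSP23.2 rose in all lines, by 0.60 in OX, 0.71 in RNAi and 1.36 in WT. Its call in OX was lost without OX cold replicate 1 (0.45, adjusted p = 0.0828) and after quantile normalization (0.51, adjusted p = 0.0758). HSP22.3 fell in OX (-1.702) and WT (-1.49, adjusted p = 0.0631 when the 6 WT libraries were fitted alone), and HSP16.0 fell in RNAi (-1.58) and WT (-1.13).

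Of the 13 chaperone genes, 5 had a lower cold response in RNAi than in WT and none a higher one. That is 38.5% of the list, where 12.4% of all genes tested were called lower and 18.1% higher. HSP81-1 averaged 16.3 ± 1.41 FPKM in RNAi cold and 46.2 ± 7.78 FPKM in RNAi control leaves, against 37.9 ± 9.22 FPKM in WT cold and 34.0 ± 7.58 FPKM in WT control leaves. The response of HSP81-1 in RNAi minus that in WT was -1.58 ± 0.33 (SE, limma adjusted p = 0.00315). HSP24.1 averaged 3.77 ± 0.571 FPKM in RNAi cold and 5.23 ± 1.296 in RNAi control leaves, against 5.07 ± 0.423 in WT cold and 1.62 ± 0.339 in WT control leaves. The difference of its responses was -1.59 ± 0.28 (adjusted p = 0.0012). The other 3 were HSP16.9B (-1.27 ± 0.32), HSP81-3 (-1.003 ± 0.26) and HSP81-2 (-0.69 ± 0.21). That of HSP81-2 missed the threshold without WT control replicate 2 (-0.61, adjusted p = 0.0529) or any of 3 other libraries. For OX against WT none of the 13 was called for such a difference by limma, and 3 had an unadjusted p under 0.05. Before cold, 2 of the 13 were called higher in RNAi than in WT and 0 lower (15.4%, beside 2.61% of all genes tested). HSP16.9B averaged 2.26 ± 1.36 FPKM in RNAi control and 0.356 ± 0.0535 in WT control leaves. It was near 0 after cold, at 0.0492 ± 0.0636 in RNAi and 0.117 ± 0.0346 in WT leaves. The part of the levels before cold in the differences of responses was not tested.

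DREB2A and DREB2B encode regulators that bind dehydration-responsive elements, and DREB2A acts upstream of HSFA3 in Arabidopsis. Whether either rice gene acts on HSFA3 was not tested. DREB2B rose by 0.67 ± 0.12 in OX and 1.08 ± 0.12 in RNAi (SE, limma adjusted p = 0.00061 and 5.21e-06). In WT its rise of 0.32 ± 0.12 (adjusted p = 0.0483) was lost without any single library of the 6 other than WT control replicate 2 (adjusted p from 0.0842 to 0.151). DREB2A fell in WT, with 1.22 ± 0.202 FPKM in cold and 4.02 ± 1.697 FPKM in control leaves. It averaged 2.16 ± 0.0753 FPKM in OX cold and 2.998 ± 0.353 in OX control leaves, and 2.75 ± 0.411 FPKM in RNAi cold and 2.41 ± 0.280 in RNAi control leaves, and was not called in either line. APX2, an ascorbate peroxidase gene, was not called in the cold in any line.

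**Figure D5:**
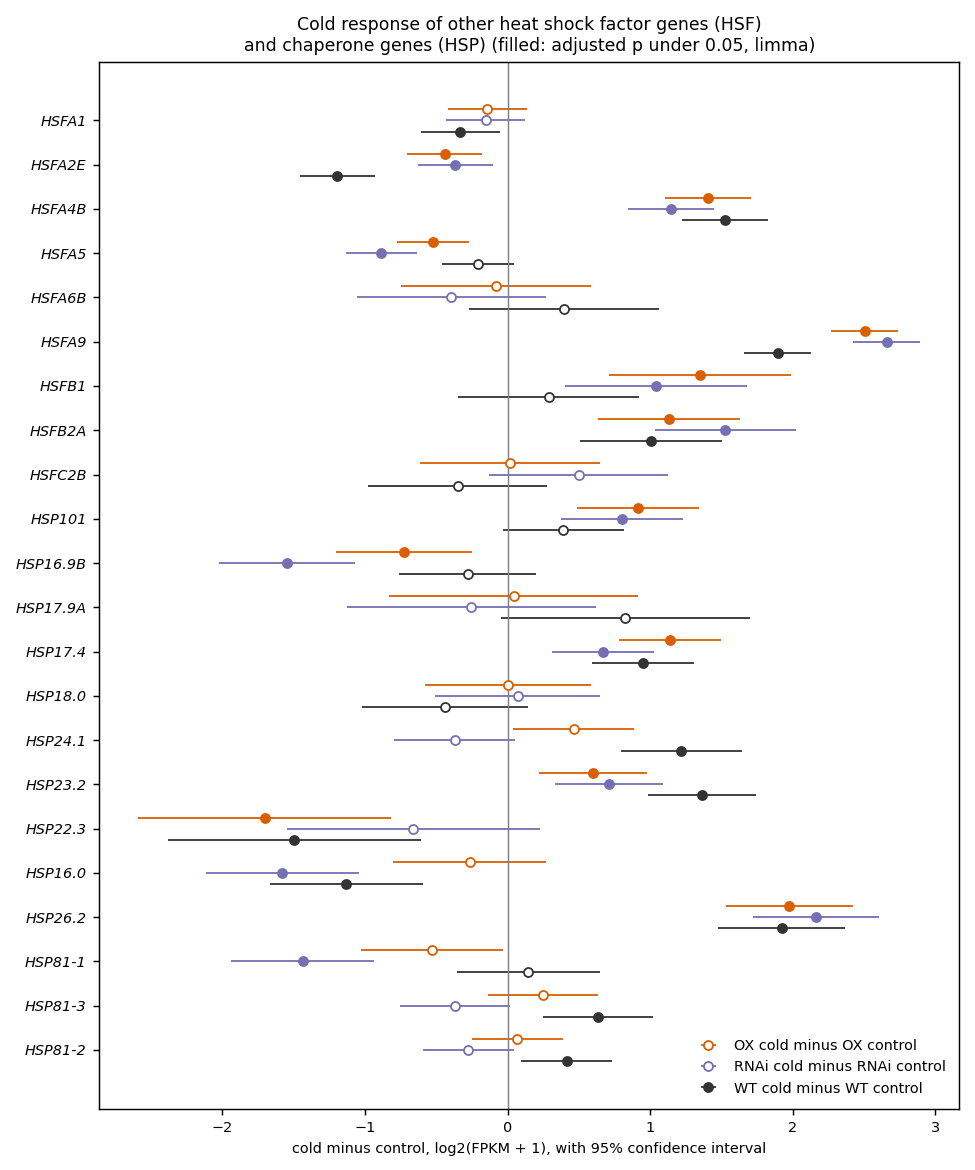
Cold response of the 9 tested further HSF genes and the 13 tested chaperone genes in OX, RNAi and WT leaves, as the difference of group means on the log2(FPKM + 1) scale (horizontal axis) with its 95% confidence interval from limma. Filled points passed an adjusted p of 0.05. HSFA9 (1.90 to 2.66) and HSP26.2 (1.92 to 2.16) stand farthest to the right in all 3 lines, and HSP81-1 lies at -1.44 in RNAi and at 0.15 in WT.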

How the data were processed

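The 18 leaf libraries were placed in 6 groups by their titles. Trizol extraction and an Illumina TruSeq RNA kit are stated per the labels' protocols. The authors deposited 1 table of FPKM values. The submitters' processing notes list Bowtie 0.12.2, and the sources used here do not state the genome build, annotation, counting tool or strand setting, so how reads of close relatives or overlapping genes were split is unknown. Relative depth came from ratios of low FPKM values between libraries (21 to 56 values each).

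A gene was tested where its FPKM reached 1 in 3 or more libraries. This kept 23175 genes and removed 15435. In limma 3.58.1 under R 4.3.3, log2(FPKM + 1) was modelled by 6 group means over all 18 libraries, with a trend of variance on mean level and without further scaling. From this, 12 comparisons were taken, and a gene counted as called where its Benjamini-Hochberg adjusted p over all tested genes was under 0.05. The procedure was run on simulated data with independent noise for each gene and changes planted only in genes at higher levels. Those data hold no library that stands apart and do not cover low genes such as HSFA4D and HSFB2B. Alternatives were a pseudocount of 0.1, filters, scalings, no variance trend, a replicate block, the compared groups alone and leaving out each library. Member pairs were correlated with exact two-sided permutation tests.

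All 54 names used belonged to a reference gene of ASM3414082v1 on the chromosome of the locus ID, in the order of the locus numbers. The members and lists were chosen with earlier results of these data known, some names of small heat shock protein genes were corrected after the table had been opened, and genes without a reference name were dropped. All members were described. From each list up to 4 called genes with the largest change per comparison could be named, and up to 3 genes most like a member by Pearson's r. Promoter and protein sequences were not analysed here.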

Additional observations from a re-analysis of the deposited data

Results flagged for a closer look

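The cold responses of 2 lines differed past the threshold (limma, adjusted p under 0.05) in 14 cases among the genes described, 12 of them between RNAi and WT. Among all genes tested, 30.5% were called for the RNAi response minus the WT response and 10.4% for the OX response minus the WT response. For RNAi, the called share was 22.2% of the 9 members and 33.3% of the 9 further HSF genes. It was 38.5% of the 13 chaperone genes and 66.7% of the 3 genes DREB2A, DREB2B and APX2. For OX it was 22.2% of the further HSF genes and 0 in the other lists. The counts were not tested against the shares of all genes. On the log2(FPKM + 1) scale, the RNAi response minus the WT response was 1.07 for HSFA3 and -0.59 for HSFB2B. It was 0.83 for HSFA2E, -0.68 for HSFA5 and 0.76 for HSFA9. Among chaperone genes it was -1.27 for HSP16.9B, -1.59 for HSP24.1, -1.58 for HSP81-1, -1.003 for HSP81-3 and -0.69 for HSP81-2, and it was 1.26 for DREB2A and 0.76 for DREB2B. The OX response minus the WT response was 0.75 for HSFA2E and 0.61 for HSFA9. That of HSFA9 in OX missed the threshold under 8 alternatives, with adjusted p from 0.0502 to 0.0683.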

How the results depend on the processing

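Calls of HSFA3, HSFB2B and HSFC2A in the cold held in all lines under every alternative that kept the gene, as did those of HSFA2B and HSFC1B in RNAi. The filter of at least 5 FPKM took the count of members called to 2 in OX and 3 in RNAi for cold against control, 0 for RNAi against WT in the cold and 1 for the RNAi response minus the WT response, since low genes were then not tested. Quantile normalization took that of OX against WT in the cold to 1. Leaving out each library in turn gave 3 to 5 for cold in OX, 5 in every case for cold in RNAi and 3 to 4 for cold in WT. It gave 0 to 1 for OX against WT in the cold and for the OX response minus the WT response, 2 in every case for RNAi against WT in the cold, 0 to 2 for the RNAi response minus the WT response and 0 for the other comparisons.

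Of same-numbered libraries, 16 of 45 pairs had r over 0.1, from -0.595 to 0.409. OX control with RNAi cold had all 3 over 0.1 (0.165, 0.174 and 0.234), and 9 of 10 replicate 2 pairs outside WT control were over 0.1. Since each other pair of groups had at least 1 value at or under 0.1, the numbers were not taken as pairing. That rule does not test for an effect shared by 1 replicate number alone, such as replicate 2. With a replicate block the HSFA4D call in OX cold was lost (1.13, adjusted p = 0.0679), the other member calls held, and genes called for RNAi against WT before cold numbered 373, against 604. Fitted alone, those groups gave 50 calls. OX against WT before cold gave 190, against 928 over all libraries and 569 with the stricter filter. OX against RNAi before cold gave 236, against 401 and 213. The OX response minus the WT response gave 1563, against 2402. The OX response minus the RNAi response gave 11, against 5 with a pseudocount of 0.1, 22 with no filter and 4 with the stricter one. The absolute depth is unknown, and genes near 1 FPKM, such as HSFA4D and HSFB2B, carry a counting error that cannot be given.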
